A study of Homo sapiens with 10 samples.

Results

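Expression of 10 genes of the nuclear lamina and the inner nuclear membrane was followed in Panc1 cells, an established human pancreatic carcinoma line, after transduction with KLF11 or its mutants. The genes were chosen for their roles, with earlier results of these data known. They are the lamins LMNA, LMNB1 and LMNB2, the inner membrane proteins and chromatin tethers EMD, TMPO, LBR and BANF1, and the SUN1, SUN2 and SYNE2 members of the complex that links nucleus and cytoskeleton. Each had 1 transcript cluster, that is 1 set of exon probes read as a gene, among the 20961 clusters that carried a gene symbol. The cells received adenovirus for 48 h at a multiplicity of infection of 150. The 5 groups were empty vector (EV), wild type KLF11 (KLF11), KLF11-A347S (labelled KLF11-347), KLF11-486 (Δ486) and KLF11-EAPP (EAPP). The study designed A347S, Δ486 and EAPP to uncouple KLF11 from WD40 proteins, from HP1 and histone methyltransferases, and from Sin3 and histone deacetylases, respectively. All constructs are epitope-tagged proteins delivered in excess to cells that keep their own KLF11. Each group had 2 arrays, which the methods describe as technical duplicates of RNA pooled from separate cultures, although the titles number them as biological replicates. All p-values therefore measure the spread between arrays and leave out the spread between cultures.

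The nuclear lamina is a meshwork of lamin filaments under the inner nuclear membrane. A-type lamins (LMNA) and B-type lamins (LMNB1, LMNB2) bind membrane proteins such as emerin (EMD) and the lamin B receptor (LBR), which hold heterochromatin at the nuclear edge. SUN proteins span the inner membrane and meet nesprins such as SYNE2 in the space between the membranes, which joins the lamina to the cytoskeleton. LBR also binds HP1, the protein from which the Δ486 mutant is meant to be uncoupled.

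Values are log2 expression after Robust Multiarray Analysis by the authors, and a change is a difference of log2 group means from limma over all 10 arrays. The words rose and fell are kept for an adjusted p under 0.05 (Benjamini-Hochberg). A change of 1.5-fold equals 0.58 on this scale. KLF11 itself read 8.37 and 7.75 with EV and between 8.68 and 8.88 on the arrays of the 4 constructs, whose means were higher than that of EV by 0.67 to 0.81. The labels do not say whether these probes detect the transduced sequence. The medians of the arrays over all clusters lay between 6.20 and 6.32. Of the epithelial markers, KRT18 and KRT8 were at the 99.8th and 99.6th percentile of all clusters by mean level. CDH1 stood at the 16.7th. Of the mesenchymal markers, VIM was at the 99.4th percentile, CDH2 at the 18.9th and FN1 at the 13.2nd. The leukocyte marker PTPRC and the fibroblast marker LUM lay at the 2.74th and 2.07th percentile, and the acinar markers between the 18.2nd and 34.0th. CD68 and COL1A1, of the leukocyte and fibroblast lists, were brighter, with mean log2 values of 9.64 and 8.13.

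With A347S, 7 of the 10 genes fell and 1, BANF1, rose. LMNB1, EMD and LMNA fell by more than 1.5-fold. With wild type KLF11, 5 fell (LMNA, LMNB1, EMD, LBR and SUN2) and none reached 1.5-fold. With Δ486 the same 5 fell and SYNE2 did as well, with LMNB1, EMD and SYNE2 beyond 1.5-fold. With EAPP none passed at an adjusted p, and LMNA alone had an unadjusted p under 0.05. Among all clusters, the share that fell at the adjusted p was 16.9% for A347S, 9.75% for KLF11 and 13.3% for Δ486. With EAPP, 0.00477% passed in either direction and 8.73% had an unadjusted p under 0.05. Clusters brighter than the median fell more often, in 29.3% of cases with A347S, 16.5% with KLF11 and 23.4% with Δ486, and 9 of the 10 genes are among these. Falls of at least 1.5-fold made up 5.35%, 1.78% and 3.23% of all clusters with A347S, KLF11 and Δ486. The median change of the 10 genes was -0.47 with A347S, -0.35 with Δ486, -0.32 with KLF11 and -0.03 with EAPP. Over all clusters it lay between -0.02 and 0.03. The number of genes called was 3 with KLF11 when the first or second EV array or the second KLF11 array was left out. It was 5 with A347S without the second EV or the second A347S array. The calls of LMNA, LMNB1 and EMD with KLF11, A347S and Δ486 stood under each of 20 alternatives other than t-tests and unadjusted p-values. An unmoderated t-test of each pair of groups, which omits the methods' Bayes step, called none of the 10 at an adjusted p and at most 4 of all 20961 clusters in any comparison with EV. In a bulk sample, fewer cells that express a gene and less RNA per cell cannot be told apart.

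**Figure D1:**
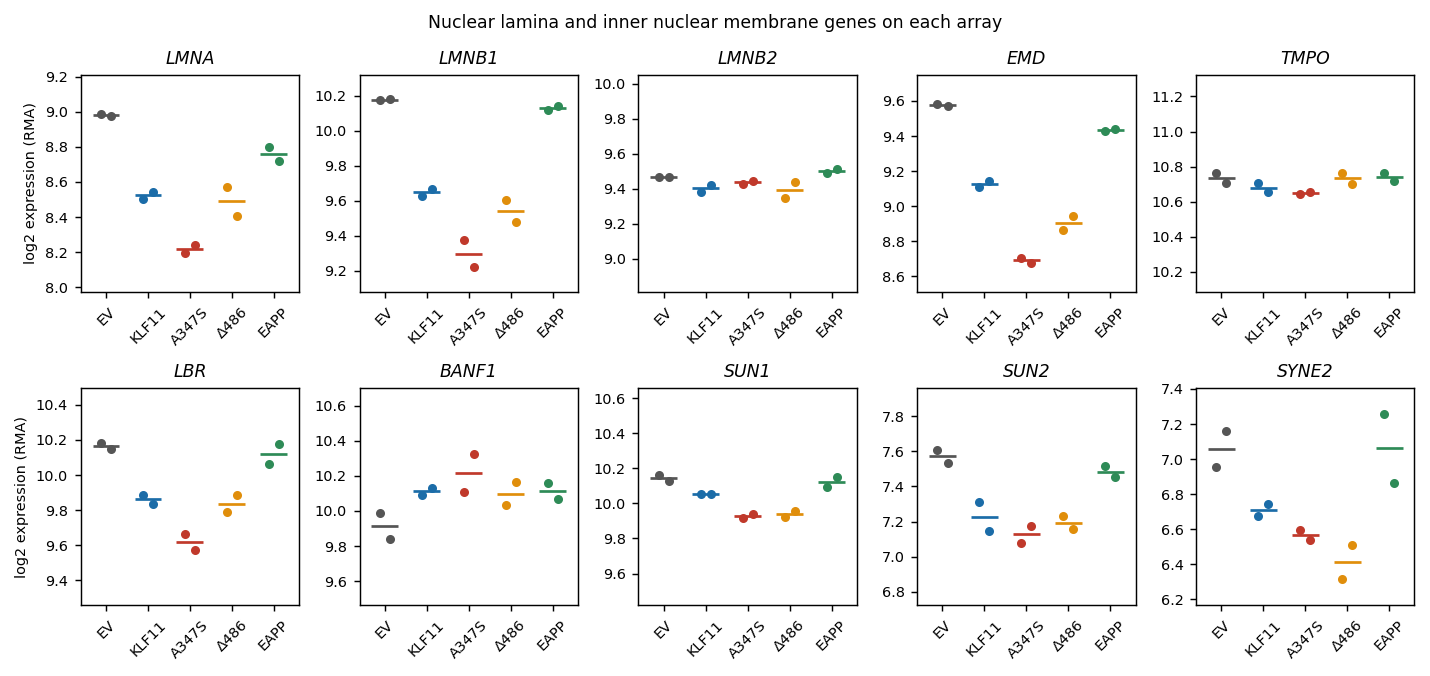
Log2 expression (vertical axis) of each of the 10 genes on each array, by group (horizontal axis); points are arrays and bars are means of 2 arrays, and all panels span the same range. LMNA, LMNB1 and EMD are lowest with A347S, while LMNB2 and TMPO stay within narrow bands in every group.

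With A347S, EMD and LMNB1 had the largest falls of the 10 genes and LBR a smaller one, and LMNB2 did not pass the test with any construct. KLF11 is known to bind GC-rich promoter elements, and the letters CCCCGC and CCCCAC were searched for. The 250 bases before the RefSeq start (GRCh38.p14) of these 4 genes are therefore shown 5′ to 3′ on the gene's strand, with matches to either motif on either strand in capitals. The windows are chrX:154379045-154379294 (plus strand) for EMD, chr5:126776886-126777135 (plus strand) for LMNB1, chr19:2456960-2457209 (minus strand) for LMNB2 and chr1:225428822-225429071 (minus strand) for LBR. For LMNB1 this is the second of 2 listed starts, and the first, further upstream, had no match.
EMD: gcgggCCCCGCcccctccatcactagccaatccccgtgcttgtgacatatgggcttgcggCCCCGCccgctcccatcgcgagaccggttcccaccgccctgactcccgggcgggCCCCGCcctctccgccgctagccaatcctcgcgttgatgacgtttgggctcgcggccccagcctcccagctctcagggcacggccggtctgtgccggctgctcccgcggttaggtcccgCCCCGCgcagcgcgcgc
LMNB1: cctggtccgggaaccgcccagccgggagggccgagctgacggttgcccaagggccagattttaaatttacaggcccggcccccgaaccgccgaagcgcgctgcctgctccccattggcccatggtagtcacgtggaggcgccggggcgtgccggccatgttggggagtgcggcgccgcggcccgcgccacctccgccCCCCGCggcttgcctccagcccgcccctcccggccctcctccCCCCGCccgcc
LMNB2: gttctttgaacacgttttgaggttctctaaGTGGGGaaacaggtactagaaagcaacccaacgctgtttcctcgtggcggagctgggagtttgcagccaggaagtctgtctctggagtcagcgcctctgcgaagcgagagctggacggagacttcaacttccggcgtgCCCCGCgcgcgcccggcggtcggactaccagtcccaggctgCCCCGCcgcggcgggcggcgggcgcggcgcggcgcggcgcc
LBR: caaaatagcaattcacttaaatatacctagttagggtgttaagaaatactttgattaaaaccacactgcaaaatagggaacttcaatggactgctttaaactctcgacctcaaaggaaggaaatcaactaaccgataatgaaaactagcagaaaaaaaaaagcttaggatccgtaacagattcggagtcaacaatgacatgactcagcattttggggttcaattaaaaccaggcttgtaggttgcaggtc
The EMD window held 4 matches, all to CCCCGC on the gene's strand, and the LMNB1 window 2. The LMNB2 window held 3 and the LBR window none. Whether matches and changes go together was not tested. The study's promoter arrays covered a wider region on both sides of the start. A figure legend of the study places most KLF11 sites farther from the start than these windows reach. RefSeq listed 17 windows for 9 of the 10 genes. Matches occurred in 12 of these windows and in 6 genes, LMNA, LMNB1, LMNB2, EMD, SUN2 and SYNE2, while the windows of TMPO, LBR and BANF1 had none. Of all 35116 windows of this length in the table, 54.1% held at least 1 match, 39.3% to CCCCGC and 30.3% to CCCCAC. Matches on opposite strands may overlap, and a match is a description of the letters, not of binding. SUN1 had no entry. LMNA, SUN2 and SYNE2 had 3 windows each and the 2 of TMPO overlap, so the windows are not separate units. The share over all windows is not a share of genes.

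LMNB1, a B-type lamin present in nearly all cells, read 10.18 on both EV arrays, 9.63 and 9.67 with KLF11, 9.37 and 9.22 with A347S, and 9.61 and 9.48 with Δ486. The EAPP arrays read 10.12 and 10.14. Both arrays of KLF11, A347S and Δ486 lay below every EV and EAPP array. The fall was 0.88 with A347S (standard error 0.08, adjusted p = 6.97e-05), or 1.84-fold. With KLF11, LMNB1 fell by 0.53 (adjusted p = 0.00225), and with Δ486 by 0.63 (adjusted p = 0.000632), which was 0.57 without the second Δ486 array. With EAPP it stood at -0.05, with a 95% confidence interval from -0.23 to 0.13.

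LMNA encodes the A-type lamins A and C. It read 8.99 and 8.98 with EV, 8.50 and 8.54 with KLF11, 8.20 and 8.24 with A347S, and 8.57 and 8.41 with Δ486. The EAPP arrays read 8.80 and 8.72. The EAPP arrays lay between those of EV and those of the other constructs, overlapping neither. LMNA fell by 0.76 with A347S (standard error 0.08, adjusted p = 0.000118), by 0.46 with KLF11 (adjusted p = 0.00388) and by 0.49 with Δ486 (adjusted p = 0.00192). The EAPP value was -0.22, with an interval from -0.40 to -0.05 and an adjusted p of 0.459 (unadjusted p from limma = 0.0176).

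LMNB2, the second B-type lamin gene, kept to a narrow band between 9.35 and 9.51 on all 10 arrays. Its changes ran from -0.07 with Δ486 to 0.04 with EAPP, and the 95% confidence interval of the largest of these reached from -0.23 to 0.08. Since LMNB1 fell, the LMNB1 value minus the LMNB2 value on the same array went from 0.71 on both EV arrays to -0.06 and -0.23 with A347S. It was 0.25 on both KLF11 arrays, 0.26 and 0.04 with Δ486, and 0.63 on both EAPP arrays. The difference of LMNA minus LMNB1 varied less, with group means from -1.37 with EAPP to -1.05 with Δ486 and -1.19 with EV. These are differences between clusters and do not compare the amounts of the lamins.

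Emerin, encoded by EMD, is a LEM-domain protein that binds lamins and BANF1. EMD read 9.58 and 9.57 with EV, 9.11 and 9.14 with KLF11, 8.71 and 8.68 with A347S, and 8.86 and 8.95 with Δ486. The EAPP arrays read 9.43 and 9.44. No arrays of different groups overlapped, and the order from high to low was EV, EAPP, KLF11, Δ486 and A347S. EMD had the largest change of the 10 genes with A347S, a fall of 0.89 (standard error 0.07, adjusted p = 3.63e-05), or 1.85-fold. It fell by 0.67 with Δ486 (adjusted p = 0.000249) and by 0.45 with KLF11 (adjusted p = 0.00233). With EAPP it stood at -0.14, with an interval from -0.30 to 0.01.

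LBR, which anchors heterochromatin and is also a sterol reductase, read 10.18 and 10.15 with EV and 9.67 and 9.57 with A347S. It read 9.89 and 9.84 with KLF11, 9.79 and 9.88 with Δ486, and 10.06 and 10.18 with EAPP, so that the EAPP arrays overlapped those of EV. LBR fell by 0.55 with A347S (adjusted p = 0.000618), by 0.30 with KLF11 (adjusted p = 0.0238) and by 0.33 with Δ486 (adjusted p = 0.0134). The KLF11 call was lost without any 1 of the EV or KLF11 arrays, with the largest adjusted p at 0.129. The Δ486 call was lost without either EV array and without the first Δ486 array.

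TMPO encodes a group of lamina-associated polypeptides that, like emerin, have a LEM domain. It ranged from 10.64 to 10.76 over the 10 arrays, and no construct moved it past the test. Its value with A347S was -0.08 (interval from -0.24 to 0.07).

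BANF1, the barrier-to-autointegration factor that crosslinks DNA and binds LEM domains, was the 1 gene of the 10 that rose. It read 9.99 and 9.84 with EV and 10.11 and 10.33 with A347S, a rise of 0.30 (standard error 0.10, adjusted p = 0.0408). Rises made up 11.5% of all clusters with A347S. The second A347S array was the highest of all 10 for BANF1, and the first overlapped the range of the other constructs. The arrays of KLF11 (10.09 and 10.13), Δ486 (10.03 and 10.16) and EAPP (10.16 and 10.07) overlapped one another and lay above both EV arrays. Its values with those constructs were 0.20, 0.19 and 0.20, and none passed. The rise passed in 10 of the 20 alternatives. It was 0.19 without the second A347S array and 0.23 without the second EV array, with adjusted p-values of 0.266 and 0.233.

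The SUN proteins and nesprins form the LINC complex. SUN2 read 7.61 and 7.54 with EV, 7.31 and 7.15 with KLF11, 7.08 and 7.18 with A347S, and 7.23 and 7.16 with Δ486. The EAPP arrays read 7.52 and 7.46. The KLF11, A347S and Δ486 arrays lay below all EV and EAPP arrays and overlapped one another. SUN2 fell by 0.45 with A347S (standard error 0.08, adjusted p = 0.00277), by 0.38 with Δ486 (adjusted p = 0.00935) and by 0.34 with KLF11 (adjusted p = 0.0186). The call with KLF11 was lost without either EV array or without the second KLF11 array, and that with Δ486 without the first EV or the second Δ486 array.

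SUN1 moved less. It read 10.16 and 10.13 with EV, 10.06 and 10.05 with KLF11, 9.92 and 9.94 with A347S, and 9.92 and 9.95 with Δ486. The EAPP arrays read 10.09 and 10.15. The arrays of A347S and Δ486 overlapped each other and lay below those of the other groups. SUN1 fell by 0.22 with A347S (adjusted p = 0.0358), which passed in 9 of the 20 alternatives. The Δ486 value was -0.21 (adjusted p = 0.0517), and 4 of the 20 alternatives called it.

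SYNE2, the giant nesprin that ties the outer membrane to actin, was the dimmest of the 10 and had the widest gap between the arrays of a group, 0.396 with EAPP. It read 6.96 and 7.16 with EV, 6.68 and 6.74 with KLF11, 6.60 and 6.54 with A347S, and 6.31 and 6.51 with Δ486. The EAPP arrays read 7.26 and 6.86. The EAPP arrays lay on either side of the EV arrays, and those of KLF11, A347S and Δ486 lay below both groups. SYNE2 was lowest with Δ486, where it fell by 0.65 (standard error 0.13, adjusted p = 0.00622), and with A347S it fell by 0.49 (adjusted p = 0.0180). Without the second EV array the Δ486 change was -0.55 (adjusted p = 0.0531). The A347S call was lost without the second EV array, without either A347S array and in a linear model without moderation. With KLF11 it stood at -0.35 (adjusted p = 0.103), and it passed when either EAPP array was left out of the fit.

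**Figure D2:**
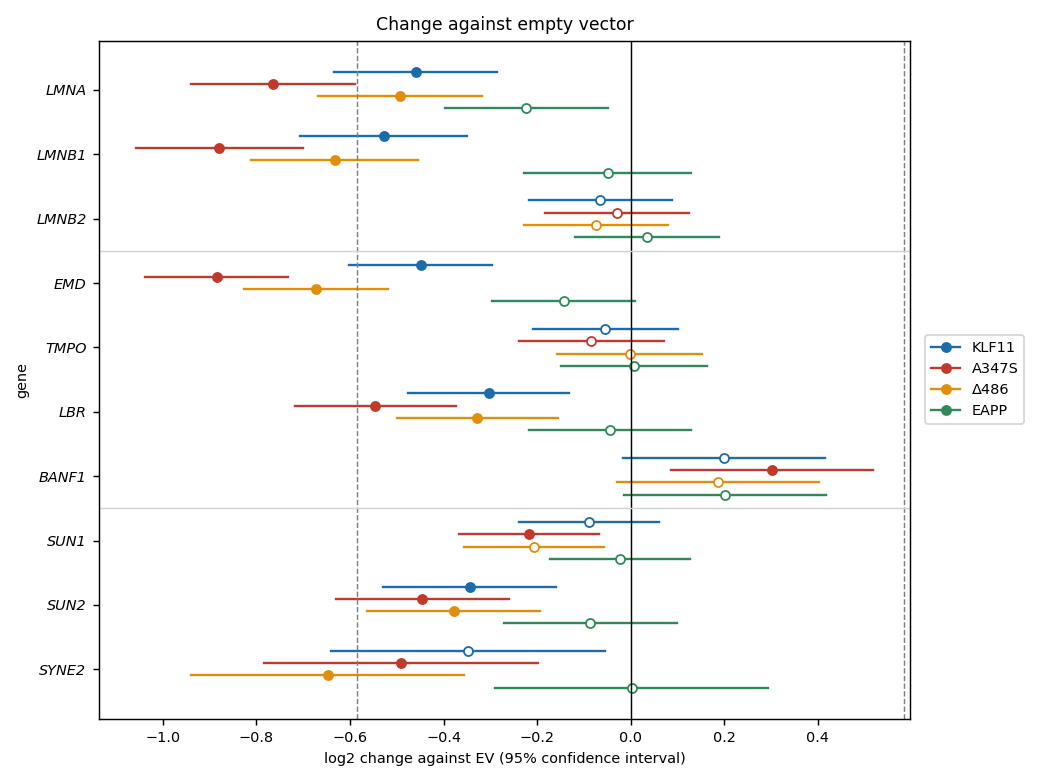
Log2 change against EV (horizontal axis) with its 95% confidence interval for each gene (vertical axis) and construct; filled points passed limma at an adjusted p under 0.05, open points did not, and dashed lines mark 1.5-fold. EMD and LMNB1 with A347S lie farthest to the left, at -0.89 and -0.88, and BANF1 lies to the right with every construct.

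The comparisons with EV share the EV arrays, so EAPP was also compared directly with the other constructs. Against A347S, 6 of the 10 genes were higher with EAPP (13.6% of all clusters were). Brighter clusters passed more often here too. With the 10480 clusters brighter than the median tested alone, 5155 passed in either direction, against 4899 of all 20961. LMNB1 was higher by 0.83 (standard error 0.08, adjusted p = 0.000160), EMD by 0.74 (adjusted p = 0.000133), LMNA by 0.54 (adjusted p = 0.00108) and LBR by 0.50 (adjusted p = 0.00149). SYNE2 was higher by 0.49 (adjusted p = 0.0216) and SUN2 by 0.36 (adjusted p = 0.0114). BANF1 was at -0.10, with an interval from -0.32 to 0.11.

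Against Δ486 the same 6 genes were higher with EAPP (8.29% of all clusters were), with SYNE2 at 0.65, LMNB1 at 0.58 and EMD at 0.53. The adjusted p-values of LBR, SUN2 and LMNA were 0.0362, 0.0420 and 0.0455, and the count was between 2 and 4 when any 1 array was left out. It was 2 without the first EAPP array, and 3 without the second EAPP array or any 1 of the EV or Δ486 arrays. Against wild type KLF11, LMNB1 was higher with EAPP by 0.48 (adjusted p = 0.00558) and EMD by 0.31 (adjusted p = 0.0213), where 4.89% of clusters were higher. Without the first KLF11 array neither passed, and 1 of them did without the second KLF11 or the first EAPP array. LMNA stood at 0.24 in this comparison (adjusted p = 0.0872) and LBR at 0.26 (adjusted p = 0.0618). Of the 10480 brighter clusters tested alone, 4009 passed in either direction for EAPP against Δ486 and 3189 for EAPP against KLF11. Of all 20961 clusters, 3148 and 2254 passed.

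**Figure D3:**
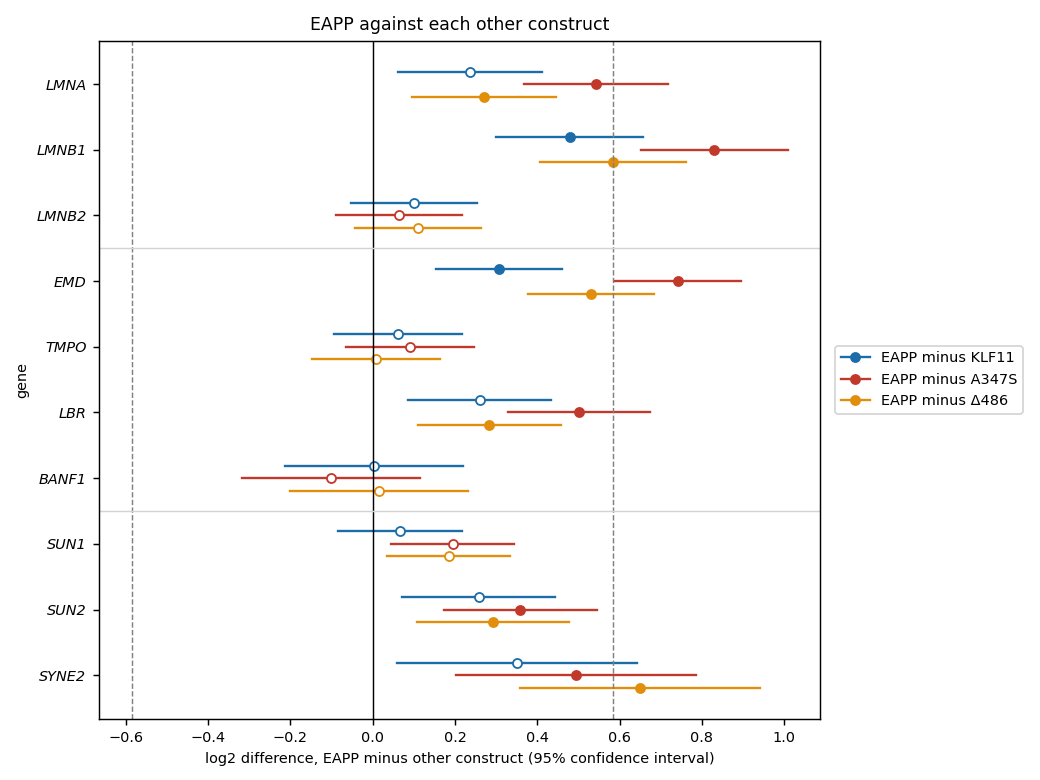
Log2 difference of EAPP minus KLF11, A347S or Δ486 (horizontal axis) with its 95% confidence interval for each gene (vertical axis); filled points passed limma at an adjusted p under 0.05 and dashed lines mark 1.5-fold. LMNB1 and EMD are higher with EAPP than with each of the other constructs, while LMNB2, TMPO and BANF1 pass in none of these comparisons.

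The 3 constructs with falls were not separated from one another at an adjusted p in the limma fit over all clusters. Limma called 0 of the 10 genes for A347S against wild type KLF11, as it did for all clusters, with 4 genes and 14.4% of clusters at an unadjusted p under 0.05. EMD was lower with A347S by 0.44 in this comparison (adjusted p = 0.113, interval from -0.59 to -0.28), LMNB1 by 0.35, LMNA by 0.31 and LBR by 0.24. With a variance trend and robust moderation, 2 of the genes and 272 of all 20961 clusters were called. Of the 10480 clusters brighter than the median tested alone, 202 were called. After quantile, cyclic loess or common median scaling, 0 clusters were. For Δ486 against wild type KLF11, 0 genes were called and 2 had an unadjusted p under 0.05, EMD at -0.22 and SYNE2 at -0.30, against 10.5% of clusters. For A347S against Δ486 these counts were 0 and 4, and 7.43% of clusters had such a p. The 4 were LMNA (-0.27), LMNB1 (-0.25), LBR (-0.22) and EMD (-0.21).

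Other genes of the nuclear envelope are given by list, to be read against the 11.5% of all clusters that rose and the 16.9% that fell with A347S (29.3% of those brighter than the median). Those named from each list are the 4 with the smallest p for A347S against EV, so their small p-values were selected for. A direct comparison of EAPP with A347S uses the same A347S arrays and is not independent of that choice. Of 19 other genes of the inner membrane and the LINC complex, 4 rose and 2 fell with A347S, and the median change was -0.02. LEMD2, a LEM-domain protein of the inner membrane, fell by 0.40 (adjusted p = 0.00271) and NRM, or nurim, a membrane protein of the envelope, by 0.49 (adjusted p = 0.00121). LEMD3, the LEM-domain protein also known as MAN1, rose by 0.41 with A347S (adjusted p = 0.00499), by 0.49 with Δ486 and by 0.37 with KLF11, and stood at 0.00318 with EAPP. The direct comparison of EAPP with A347S gave -0.41 for LEMD3 (adjusted p = 0.00688) and 0.47 for NRM (adjusted p = 0.00210). PLPP7 rose by 0.39 with A347S.

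Lamins are farnesylated, trimmed and methylated at their C-terminus. Of the 5 measured genes of this list, 1 rose and 1 fell with A347S. RCE1, the endoprotease that removes the last residues of farnesylated proteins, fell by 0.57 (adjusted p = 0.00254), and NARF, which binds prenylated prelamin A, rose by 0.53 (adjusted p = 0.000452). ZMPSTE24, the protease that matures lamin A, stood at -0.21 (adjusted p = 0.0636) and FNTA, a farnesyltransferase subunit, at -0.05.

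Of 11 measured genes that seal the reforming envelope or control BANF1, 4 fell and 2 rose with A347S, beside the 16.9% and 11.5% of all clusters. SPAST, the microtubule-severing ATPase spastin, fell by 0.99 (adjusted p = 8.13e-05) and stood at -0.04 with EAPP. The direct difference was 0.95 (adjusted p = 0.000176), on the A347S arrays by which SPAST was picked. PPP2R2A, a regulatory subunit of protein phosphatase 2A, fell by 0.80 (adjusted p = 0.000650) and stood at -0.37 with EAPP (adjusted p = 0.392). IST1, an ESCRT-III protein, fell by 0.43, while VPS4A, the ATPase that recycles ESCRT-III, rose by 0.30.

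Of 28 measured nucleoporin genes, 6 rose and 8 fell with A347S, the latter near the share of brighter clusters, and the median change was 0.11. SEH1L and NUP43, both of the outer ring complex, fell by 0.84 (adjusted p = 0.000149) and 0.74 (adjusted p = 0.000260), and NUP93, of the inner ring, fell by 0.70 (adjusted p = 0.000149). NUP42, a nucleoporin of the cytoplasmic face, rose by 0.77 (adjusted p = 0.000165). With EAPP, limma called 0 of the 63 genes in these 4 lists, and 6 had an unadjusted p under 0.05, near the 8.73% of all clusters that did. At the adjusted p, 0.00477% of all clusters passed with EAPP.

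**Figure D4:**
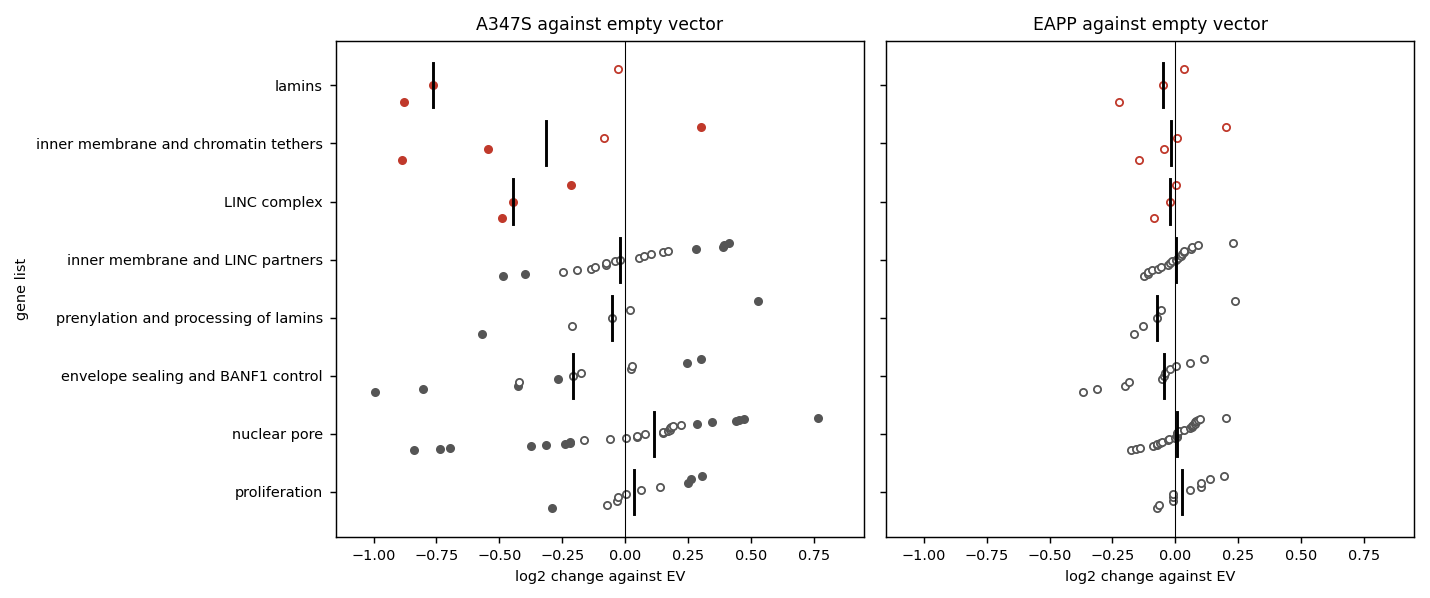
Log2 change against EV (horizontal axis) with A347S on the left and EAPP on the right, for the genes of each list (vertical axis); red points are the 10 genes described here, filled points passed limma at an adjusted p under 0.05, and vertical bars are list medians. With A347S the lamins, tethers and LINC genes lie mostly left of 0, while the nuclear pore genes spread to both sides.

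LMNB1, TMPO and LBR are also known to vary with cell division. Of 10 proliferation genes, 3 rose (MCM2, PLK1 and TOP2A) and 1 fell (BUB1) with A347S. These counts and those of the markers below stand beside the 11.5% of all clusters that rose and the 16.9% that fell. Among clusters brighter than the median, 29.3% fell. The mean level of the proliferation genes was 10.33 and 10.37 on the EV arrays and 10.42 and 10.39 on the A347S arrays. On the EAPP arrays it was 10.42 and 10.36. Of 5 epithelial markers, 3 (KRT8, KRT18 and KRT19) fell with A347S. KRT19 changed most, from a mean of 10.83 with EV to 9.32 with A347S, while EPCAM went from 8.46 to 8.55. The median change of the list with A347S was -0.25. Its mean level was 10.01 and 10.04 with EV and 9.63 and 9.52 with A347S. On the EAPP arrays this mean level was 9.92 and 9.97. Markers of other lists fell with A347S as well, VIM of 3 mesenchymal markers by 0.48 (adjusted p = 0.000546) and COL1A1 of 5 fibroblast markers by 0.34 (adjusted p = 0.00422). The part of the proliferation genes and of these markers in the results was not tested.

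Pearson correlation over the 10 arrays was taken among the 9642 clusters with exactly 1 symbol that were brighter than the median. The genes with a pattern most like that of EMD were CYB5R1 (r = 0.992), CNPY3 (r = 0.991) and GALNT7 (r = 0.991). For LMNB1 they were ALDH1B1 (r = 0.997), TGFBR1 (r = 0.997) and ARPC1B (r = 0.996). The arrays fall into groups, so these values mainly describe shared group means. ALDH1B1, for example, read 9.81 and 9.77 with EV, 8.58 and 8.39 with A347S, and 9.70 and 9.80 with EAPP.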

How the data were processed

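RNA of Panc1 cells was hybridised to 10 Affymetrix Human Gene 1.0 ST arrays, 2 for each of 5 groups, 48 h after transduction. The authors corrected background and normalised intensities by Robust Multiarray Analysis and deposited log2 values for 28869 transcript clusters. Partek 6.6 is named in the submitters' processing notes, and the build behind the array's annotation was not stated. Symbols came from GEO's platform annotation, and the 20961 clusters with a symbol were tested (19229 with 1 symbol, 1732 with several). Groups were taken from the sample labels. The correlation between the 2 arrays of a group lay between 0.9956 and 0.9968, and the number of arrays limits the precision.

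Each gene was read from its brightest cluster. All 10 arrays entered 1 limma fit (version 3.58.1, R 4.3.3) with a mean per group, and p-values were adjusted over all clusters tested by the method of Benjamini and Hochberg. There were 10 comparisons, read at an adjusted p of 0.05 and also with 1.5-fold. The methods state a threshold of 1.5 in words that can also be read as 1.5 on the log2 scale, and no change of the 10 genes reached that size. Intervals are at 95%. The pipeline was tested on simulated data. The 10 genes, the lists and the markers were chosen with earlier results of these data known. Of each list, the genes named were the 4 with the smallest p for A347S against EV. In all, 24 alternatives were tried, covering scaling, filters, tests, the replicate number as a block and each array left out in turn. Promoter sequences came from RefSeq. FNTB, CHMP3, AHCTF1, POM121, POM121C and NUP62 were not measured under a symbol of their own and were left out of the lists.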

Additional observations from a re-analysis of the deposited data

How the results depend on the processing

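Of the changes against EV of single genes under the alternatives, 853 kept direction and side of the threshold, 72 were no longer called, 14 were newly called and 17 changed sign, none of the last called. With 2 arrays per group, dim genes and small changes are the least secure. The scalings moved the median of all clusters by at most 0.079. Averaging all clusters of a gene was not run, since each gene had 1 cluster, and with dim clusters left out no count was formed because SYNE2 is among them. The cause of the differences below was not tested.

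By a plain t-test with adjustment, which leaves out the Bayes correction of the methods, 0 genes were called for KLF11, A347S and Δ486 against EV, 0 with 1.5-fold, and 0 for EAPP against KLF11, A347S or Δ486. Among all 20961 clusters it called at most 4 in these comparisons. At an unadjusted p under 0.05, that t-test gave 2 genes for EAPP against EV, beside 1525 of all 20961 clusters. It gave 5 for A347S against KLF11 (2055 clusters) and 2 for Δ486 against KLF11 (1459 clusters). It gave 4 for EAPP against KLF11 (3289 clusters) and 1 for A347S against Δ486 (1068 clusters). At 0.005 it gave 3 for KLF11 (912 clusters) and 2 for A347S (1287 clusters) against EV. It gave 1 for Δ486 (893 clusters, and 1 of the genes with 1.5-fold) and 1 for EAPP (170 clusters) against EV. It also gave 1 for A347S against KLF11 (205 clusters), 1 for EAPP against A347S (703) and 0 for EAPP against Δ486 (483). Limma at an unadjusted p under 0.05 gave 1 for EAPP against EV (1829 clusters) and 4 for A347S against KLF11 (3017 clusters). It gave 2 for Δ486 against KLF11 (2211 clusters), 6 for EAPP against KLF11 (5276 clusters) and 4 for A347S against Δ486 (1557 clusters). With a variance trend and robust moderation, 2 genes were called for A347S against KLF11 (272 of all 20961 clusters). For EAPP against KLF11 this setting gave 4 genes (3330 clusters). For EAPP against KLF11 a common median gave 1 (1889 clusters) and a fit of the 2 groups alone 1 (1139 clusters). For EAPP against Δ486 the fit of the 2 groups alone gave 2 (1375 clusters). A fit of all 28869 clusters, with or without a symbol, gave 3 (2579 clusters).

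Deviations of arrays with the same number in different groups had correlations from -0.348 (Δ486 with EAPP) to 0.145 (KLF11 with EAPP). Whether arrays with different numbers were processed together was not tested. With the array number as a replicate block, 6 genes were called for A347S against EV, all among the 8 without the block. Of all 20961 clusters, 5689 were called there. For EAPP against Δ486 the block gave 3 genes and 2805 clusters.

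With each array left out in turn, the count ran from 3 to 6 for KLF11, 5 to 8 for A347S, 4 to 6 for Δ486 and 0 to 0 for EAPP against EV. With 1.5-fold it ran from 0 to 0, 3 to 4, 2 to 3 and 0 to 0. It ran from 0 to 2 for EAPP against KLF11, 4 to 6 for EAPP against A347S, 2 to 4 for EAPP against Δ486, and 0 to 0 for the other comparisons.

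LMNB2 with A347S was at 0.0272 after quantile and 0.0404 after cyclic loess normalization. TMPO with Δ486 was at 0.0198 and 0.0390 after these, and ran from -0.0342 to 0.0303 with each array left out. TMPO with EAPP was at -0.0237 with a common median and ran from -0.0235 to 0.0375. SUN1 with EAPP was at 0.00363 after quantile normalization and ran from -0.0510 to 0.00525, and LBR with EAPP from -0.102 to 0.0135. SYNE2 with EAPP was at -0.0159 after quantile and -0.0191 after loess normalization and -0.0281 with a common median, and ran from -0.195 to 0.201.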
